A study of Arabidopsis thaliana with 6 samples.

Results

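EF-hand genes for calcium-binding proteins were followed in leaves of the des1-1 mutant and of wild-type Arabidopsis thaliana. The genes comprised AT2G41410, AT2G46600 and every gene whose symbol is CML (calmodulin-like) with a number, wherever a probe set was assigned to that gene alone. The rule gave 9 genes, each with 1 probe set, out of 13513 probe sets with 1 named gene and 22746 tested in all. They were AT2G41410 and AT2G46600, named by locus only in the tables used here, and CML23, CML30, CML37, CML38, CML41, CML42 and CML43. AT2G41410, AT2G46600 and CML41 were chosen by their log2 difference between the genotypes on these same 6 arrays, and the symbol added the other 6. The genotype differences of all 9, with the SE and 95% interval of a limma fit, are therefore a description. No p value is printed for them. The count under the threshold for all probe sets is given only beside the share of all probe sets.

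The study hybridised leaf RNA to Affymetrix ATH1 arrays, with 3 biological replicates per genotype. The wild type was accession Col-0, and the mutant carried the des1-1 allele (line SALK_03855), in which DES1 is disrupted. DES1 belongs to the family of O-acetylserine(thiol)lyases, the cysteine-making enzymes, and is known to degrade cysteine in the cytosol. Plants of both genotypes were 3 weeks old and grew in soil with Hoagland medium, with 16 h of light at 20 °C and 8 h of darkness at 18 °C. The mutant was represented by 1 allele, the labels do not say how many plants made up a sample, and the level of DES1, which would check the genotype labels, was not analysed here.

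Calcium ions act in plant cells as a brief internal signal: channels let them into the cytosol, pumps remove them, and sensor proteins read the rise. Most sensors bind the ion in EF hands, a loop held between a pair of helices. Calmodulins and calmodulin-like proteins have no enzyme activity of their own and change the activity of the proteins they bind. In leaves such sensors are known for their part in responses to touch, wounding, herbivores, microbes and drought.

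The arrays were alike in overall level, with medians of 5.78 to 5.81 on the log2 scale. Pairs of arrays correlated at 0.9939 to 0.9966 within genotypes and at 0.9869 to 0.9967 across them. On the first principal component the wild-type arrays stood at -19.6, -15.0 and -7.54 and the des1-1 arrays at 1.36, 12.7 and 28.0, so des1-1 1 lay nearest to the wild type. A single array, wild type 2, had a high signal for the 25S ribosomal RNA control (10.2), which elsewhere was 5.49 to 6.20. The leaf markers were bright, with wild-type means of 14.1 for RCA, the activase of Rubisco, and 13.7 for LHCB4.1, a light-harvesting protein. Of the 5 measured leaf mesophyll markers, LHCB4.3 (-0.30 ± 0.08 SE, adjusted p = 0.159 in limma) and PRK (-0.17 ± 0.08 SE, adjusted p = 0.335 in limma) lay wholly lower in des1-1. Of all probe sets, 8.66% lay wholly lower. LHCB4.2, LHCB4.1 and RCA overlapped between the genotypes and differed by 0.07, 0.04 and -0.07. The summed linear level of the 5 markers was 47677 to 49272 in the wild type and 44751 to 49054 in des1-1. FMA, MUTE and SPCH, the 3 measured markers of the guard cell line, had higher means in des1-1, with a median log2 difference of 0.16 and 0 past the test in limma (0 at an unadjusted p under 0.05). Each of the 3 overlapped between the genotypes. Their summed linear level was 146 to 165 in the wild type and 161 to 186 in des1-1. FMA, at 6.79 on average in the wild type, weighs most in that sum. MUTE averaged 4.48 there and SPCH 4.53, less than the lower quartile of any array (4.69 to 4.78). MUTE read 4.42 to 4.52 in the wild type and 4.49, 4.93 and 4.54 in des1-1, so its higher mean came mainly from des1-1 2. The part of these markers in the results was not tested. The root hair markers EXPA7 and EXPA18 stood at 4.94 and 5.54, below the array medians. In a bulk leaf sample, fewer cells of a type and less RNA per cell cannot be told apart.

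Among the 9 genes, 8 had a higher mean in des1-1 and 1, CML30, a lower one. Over all probe sets 49.9% had a higher and 49% a lower mean. The median log2 difference (des1-1 minus wild type) of the 9 was 0.21, against 0.00 over all probe sets. The median deviation of the 9 from their wild-type means was -0.02, 0.01 and 0.04 on wild type 1, 2 and 3. It was 0.11, 0.21 and 0.35 on des1-1 1, 2 and 3, so it climbed in the order of the first principal component. Not every gene kept that order, AT2G46600 among them, and the part of that component was not tested. For the 6 genes that only the symbol brought in, the median log2 difference was 0.19, and 5 of the 6 were higher. Those 5 include CML37, at 0.01. CML23, CML37, CML38 and CML43 had wild-type means under the lower quartile of every array. The other genes added by symbol were CML42 (0.20) and CML30 (-0.21). The 3 des1-1 arrays lay wholly above the 3 wild-type arrays for 5 of the 9 genes and wholly below for 1, where 9.87% and 8.66% of all probe sets did so. In the limma fit over all probe sets, 2 of the 9 genes, AT2G41410 and AT2G46600, lay under an adjusted p of 0.05 as higher and 0 as lower. Of all probe sets, 0.33% did so as higher, 0.0572% as lower and 0.387% in either direction. Because this contrast chose the leading genes, nothing is read from these counts. The 2 became 0 without any one of the wild-type arrays and 1 without des1-1 3.

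**Figure D1:**
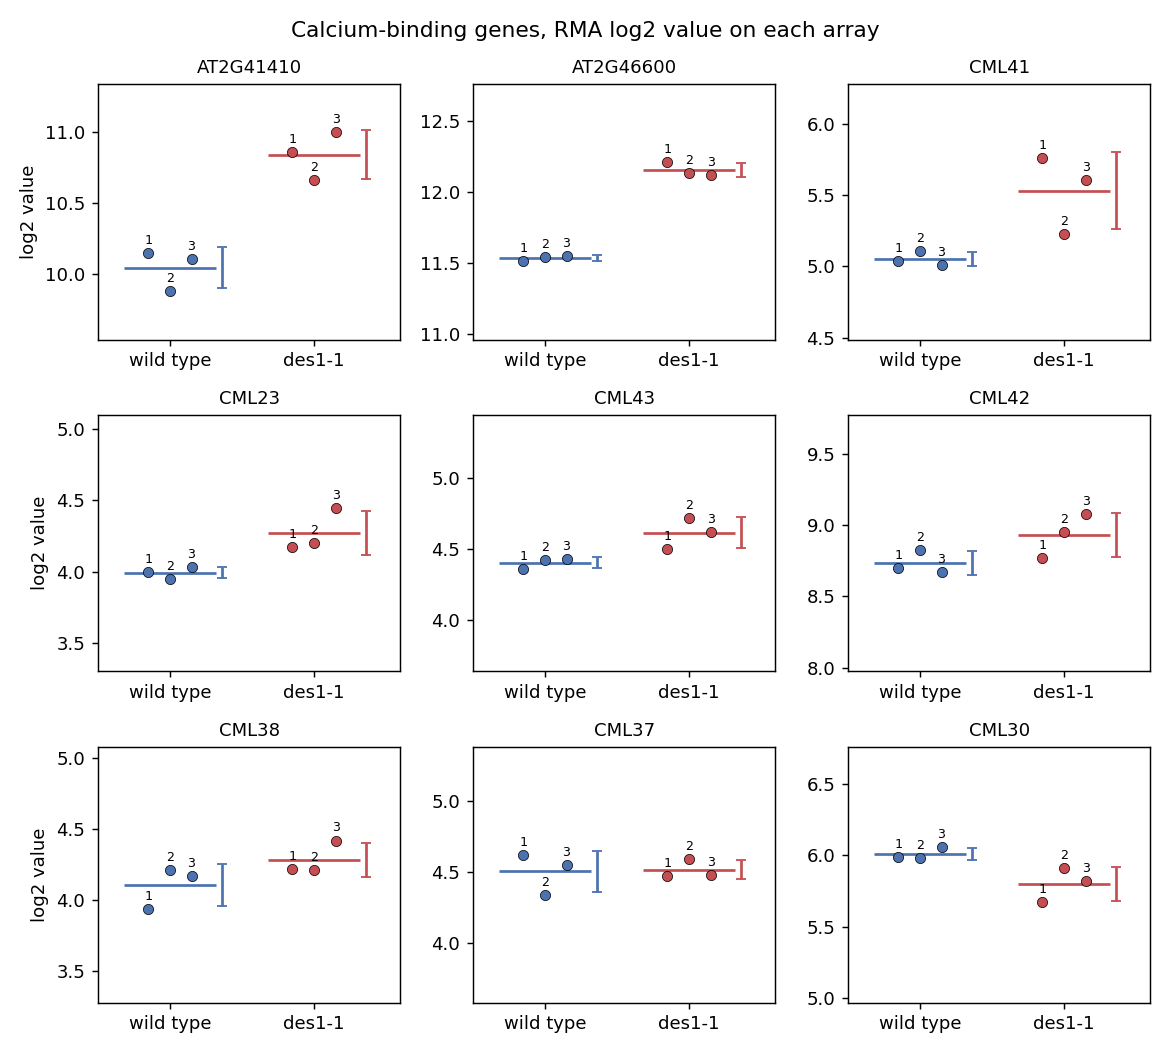
RMA log2 values of the 9 calcium-binding genes on each array (points, numbered by replicate), with the mean (line) and SD (bar, n = 3) of each genotype. Every panel spans the same height on the log2 axis but is centred on its own gene. AT2G41410 and AT2G46600 show the widest gaps between genotypes, 0.51 and 0.57, and CML37 shows none.

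AT2G41410 had the largest difference of the 9. Its log2 values were 10.15, 9.88 and 10.11 on wild type 1, 2 and 3 and 10.86, 10.66 and 11.00 on des1-1 1, 2 and 3. All mutant values lay above all wild-type values, and the nearest pair was 0.51 apart. The mean went from 10.05 ± 0.15 to 10.84 ± 0.17 (SD, n = 3 each), a 1.73-fold higher level with a log2 difference of 0.79 ± 0.11 (SE; 95% interval 0.54 to 1.05). Only 43 probe sets in the whole table, this one included, had a difference as high. Its lowest value came from wild type 2, where the 25S ribosomal RNA signal was high. With that array left out the difference was 0.71, and across the 15 alternatives it ran from 0.71 to 0.88.

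AT2G46600 was the steadiest of the genes within each genotype. It read 11.51, 11.54 and 11.55 on the wild-type arrays and 12.21, 12.13 and 12.12 on the des1-1 arrays. The genotypes were 0.57 apart at their nearest, while values within a genotype spread over 0.04 in the wild type and 0.09 in the mutant. The means were 11.53 ± 0.02 and 12.15 ± 0.05 (SD, n = 3 each), and des1-1 was 1.54-fold higher (log2 difference 0.62 ± 0.07 SE; 95% interval 0.46 to 0.78). In all, 99 probe sets had a difference as high, a rank from which nothing is read because this difference chose the gene. Both AT2G41410 and AT2G46600 lie on chromosome 2 and read well above the array medians. The difference of AT2G46600 kept to 0.59 to 0.64 in the fits that left out 1 array.

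CML41, whose protein sits at plasmodesmata and promotes their closure by callose during immune responses, differed in size among the mutant arrays. Its wild-type values were 5.04, 5.11 and 5.01, and its des1-1 values were 5.76, 5.23 and 5.61. The genotypes did not overlap, but des1-1 2 stood only 0.12 above wild type 2 and well below the other mutant arrays. The means were 5.05 ± 0.05 and 5.53 ± 0.27 (SD, n = 3 each). The level was 1.39-fold higher in des1-1 (log2 difference 0.48 ± 0.13 SE; 95% interval 0.19 to 0.77). Leaving out des1-1 2 raised the difference to 0.63, and leaving out des1-1 1 lowered it to 0.37. The wild-type mean lay below the array medians, in the range where RMA compresses differences.

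CML42 and CML43 are close relatives, and CML42 is known from leaf hairs and from the control of jasmonate responses to herbivores. CML42 read 8.70, 8.83 and 8.67 in the wild type and 8.77, 8.95 and 9.08 in des1-1. Wild type 2 exceeded des1-1 1, so the genotypes overlapped, and the log2 difference was 0.20 ± 0.10 (SE; 95% interval -0.02 to 0.42), or 0.13 without des1-1 3. TRY, a marker of leaf hair patterning and the only leaf hair marker measured, read 6.26 to 6.43 in the wild type and 6.13 to 6.31 in des1-1. Its log2 difference was -0.12 ± 0.08 SE, and the part of leaf hairs in the CML42 values was not tested. CML43, whose transcript is known to respond to pathogens, read 4.36, 4.42 and 4.43 in the wild type and 4.50, 4.72 and 4.62 in des1-1. Its genotypes were separated by 0.07, and the difference was 0.21 ± 0.08 (SE; 95% interval 0.03 to 0.39).

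CML37 and CML38, sensors known for induction by wounding, both overlapped between genotypes. CML37 read 4.62, 4.34 and 4.55 in the wild type and 4.47, 4.59 and 4.48 in des1-1. The mutant values fell inside the wild-type range, and the log2 difference was 0.01 ± 0.09 (SE; 95% interval -0.20 to 0.22). CML38, which is also known for its induction in low oxygen, read 3.94, 4.21 and 4.17 in the wild type and 4.22, 4.21 and 4.42 in des1-1. Des1-1 2 equalled wild type 2, and the difference was 0.18 ± 0.10 (SE; 95% interval -0.05 to 0.40), or 0.093 without wild type 1. AT1G76640, which carries the synonym CML39 and lies beside CML38 on chromosome 1, differed by -0.05 ± 0.07 SE (adjusted p = 0.820 in limma). Its values overlapped, at 4.37 to 4.43 in the wild type and 4.25 to 4.39 in des1-1.

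CML23, known together with its near relative CML24 for a role in nitric oxide levels and flowering time, had the largest difference among the genes added by symbol. It read 4.00, 3.95 and 4.03 in the wild type and 4.17, 4.20 and 4.45 in des1-1. The genotypes did not overlap, and des1-1 3 stood apart from the other mutant arrays. The log2 difference was 0.28 ± 0.09 (SE; 95% interval 0.07 to 0.49), and 0.19 without des1-1 3. CML23, CML37, CML38 and CML43 had wild-type means of 3.99 to 4.50, under the lower quartile of every array (4.69 to 4.78). Differences are compressed further there, and whether these transcripts were detected above background was not tested.

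CML30, whose protein is known to reside in mitochondria, was the exception in direction. It read 5.99, 5.98 and 6.06 in the wild type and 5.67, 5.91 and 5.82 in des1-1. All mutant values lay below all wild-type values, by 0.07 at the nearest. The log2 difference was -0.21 ± 0.08 (SE; 95% interval -0.40 to -0.02), and it ran from -0.27 to -0.15 over the alternatives. In size it equalled the difference of CML43 with the sign turned.

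**Figure D2:**
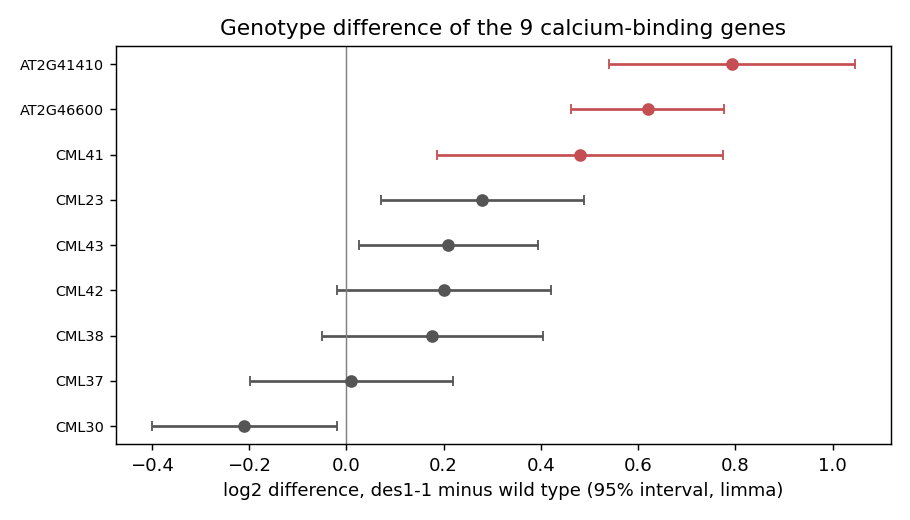
Log2 difference (des1-1 minus wild type) of the 9 genes, with 95% intervals from the limma fit over 3 arrays per genotype. The genes singled out by this contrast are in red and those added by symbol in grey. The values run from 0.79 for AT2G41410 to -0.21 for CML30.

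**Figure D3:**
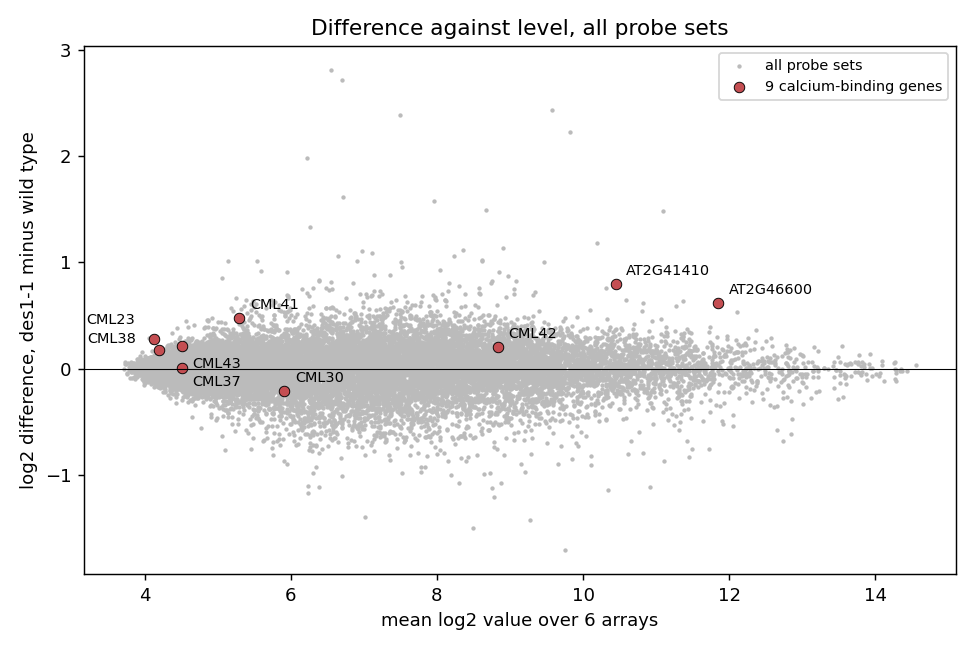
Log2 difference against mean log2 value over the 6 arrays for the 22746 probe sets (grey) and the 9 calcium-binding genes (red). AT2G41410 and AT2G46600 sit at the upper edge of the cloud among bright probe sets, and 4 CML genes sit at the dim left edge, where the cloud narrows.

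The genes whose pattern over the 6 arrays was most like that of the leading 3 were looked up among 6090 single-gene probe sets brighter than the array-wide median. Pearson's r was the measure, over arrays that differ in genotype and share their normalization, so any gene that differs steadily between the genotypes scores high. For AT2G41410 the nearest were AT5G18310 (r = 0.9947), AT1G14300 (0.9939) and UF3GT (0.9912), a gene of anthocyanin glycosylation that read 8.46 to 8.81 in the wild type and 9.39 to 9.61 in des1-1. For AT2G46600 they were AT5G61590 (r = 0.9915), which carries the synonym DEWAX and encodes a repressor of wax synthesis, AT3G23550 (0.9910) and the defensin gene PDF1.2 (0.9910). AT5G61590 read 8.91, 9.02 and 8.96 in the wild type and 9.65, 9.64 and 9.68 in des1-1. For CML41 they were AT5G37070 (r = 0.9927), AT5G66250 (0.9888) and AT3G55140 (0.9829). These genes shared the low des1-1 2 value of CML41, a likeness that the search by r itself selects for. AT5G37070 read 9.07, 9.08 and 9.05 in the wild type and 9.40, 9.19 and 9.33 in des1-1. No gene was shared between the 3 sets of nearest genes named here. In all, 81, 39 and 26 probe sets reached an r over 0.95 with AT2G41410, AT2G46600 and CML41, and the overlap among those was not counted.

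The rest of the calcium pathway was read from 12 lists of channels, sensors, kinases, pumps, targets and responses. Of these, 5 lists held a named single-gene probe set, 28 genes in all. No named probe set matched the lists of calmodulins, CBL sensors, CIPK kinases, calcium-dependent kinases, annexins, and pumps with exchangers. The same held for callose with plasmodesmata genes, and these lists were not analysed here. None of the 28 genes passed in limma (0 rose, 0 fell, smallest adjusted p = 0.136). Without des1-1 1, the mutant array nearest to the wild type, 1 rose and 4 fell, in a fit in which 219 rose and 546 fell among the 22746 probe sets, against 75 and 13 with all arrays. At an unadjusted p under 0.05, 1 was higher and 7 were lower, against 7.9% and 7.66% of all probe sets. The median log2 difference of the 28 was -0.04, with 9 higher and 19 lower.

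Channels came first. The 7 genes matched all belonged to the glutamate receptor-like family, cation channels that admit calcium, and their median log2 difference was -0.01. Whole symbols were matched, so a gene of this family whose symbol begins with AT was not taken. GLR3.3 and GLR3.6, known for carrying wound signals between leaves, differed by 0.09 ± 0.15 SE (adjusted p = 0.838 in limma) and 0.17 ± 0.09 SE (adjusted p = 0.424 in limma). GLR3.5 differed by -0.06 ± 0.08 SE (adjusted p = 0.810 in limma). GLR2.7, one of a cluster of receptors known from calcium entry after microbial signals, read 6.89, 7.25 and 6.93 in the wild type and 6.83, 6.54 and 6.49 in des1-1. The genotypes were separate by 0.06, with a log2 difference of -0.40 ± 0.13 SE (adjusted p = 0.190 in limma). Its neighbours GLR2.8 and GLR2.9 differed by -0.02 ± 0.09 SE and -0.01 ± 0.07 SE, and both were dim.

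The calmodulin-binding list held 15 genes, all of the IQD family, whose proteins bind calmodulin and are known mostly from microtubules and the plasma membrane. Of these, 11 were lower and 4 higher in des1-1, against 49% and 49.9% of all probe sets, and 0 passed in limma. With an unadjusted limma p under 0.05, 6 were lower and 0 higher, against 7.66% and 7.9% of all probe sets. The median log2 difference was -0.13, and 4 of the 15 were wholly lower in des1-1, as were 8.66% of all probe sets. IQD31 read 8.50, 8.40 and 7.91 in the wild type and 7.85, 7.07 and 6.98 in des1-1. The values fell in the same order as the arrays along the first principal component, with wild type 3 and des1-1 1 only 0.06 apart. Its log2 difference was -0.97 ± 0.24 SE (adjusted p = 0.136 in limma), and -1.24 without des1-1 1 (adjusted p = 0.0166 in limma, within 0.0166 to 0.40 over the alternatives). The part of that component in the result was not tested.

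IQD30 read 6.33, 6.48 and 5.84 in the wild type and 5.92, 5.39 and 5.18 in des1-1. Wild type 3 lay below des1-1 1, so the genotypes overlapped, with a log2 difference of -0.72 ± 0.21 SE (adjusted p = 0.174 in limma). Without des1-1 1 the difference was -0.93 (adjusted p = 0.0378 in limma, within 0.0378 to 0.443 over the alternatives). For iqd32 the same array stood apart: it read 6.88, 6.97 and 6.85 in the wild type and 6.83, 6.31 and 6.21 in des1-1. Des1-1 1 lay only 0.02 below the lowest wild-type value, and the other mutant arrays lay further down. Another family member, iqd33, had the third smallest unadjusted p of the list, at -0.25 ± 0.07 SE (adjusted p = 0.178 in limma).

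**Figure D4:**
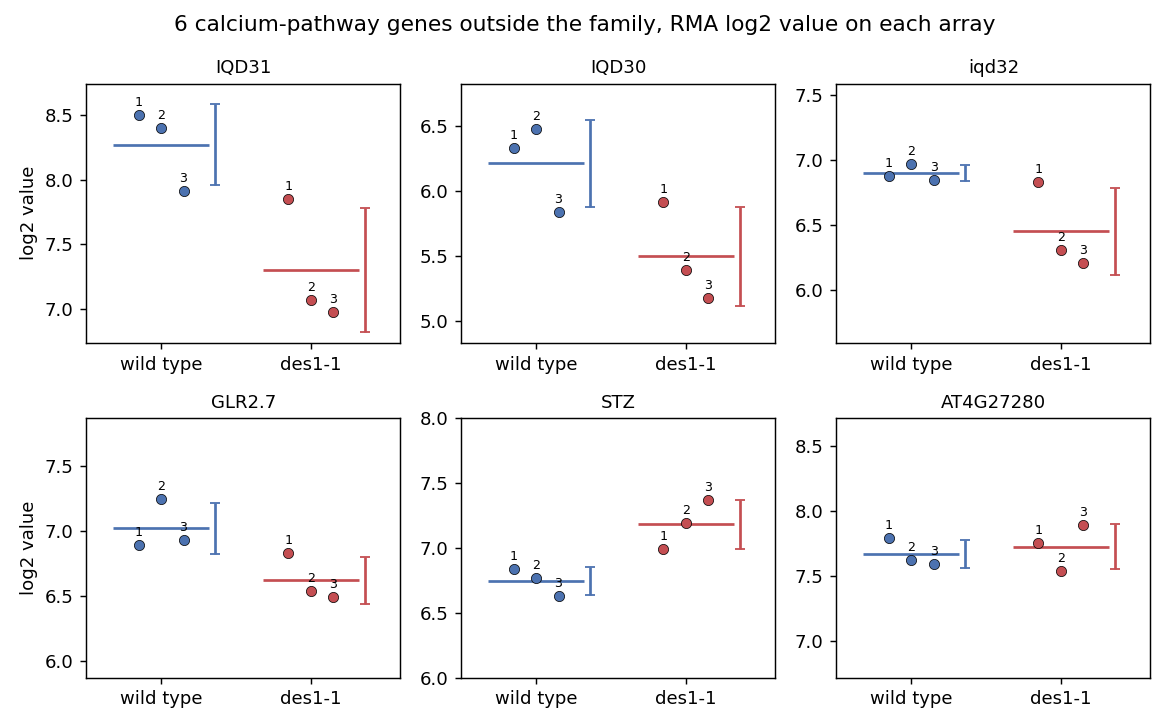
RMA log2 values on each array (points, numbered by replicate) of 6 genes of the calcium pathway outside the 9, with mean (line) and SD (bar, n = 3); every panel spans the same height. In IQD31, IQD30, iqd32 and GLR2.7 des1-1 1 stands above the other mutant arrays, and the genotypes are separate by 0.15 in STZ.

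Of the 3 early response genes, 2 had a higher and 1 a lower mean in des1-1. STZ, a zinc finger repressor induced by many stresses, read 6.84, 6.77 and 6.63 in the wild type and 6.99, 7.19 and 7.37 in des1-1. The genotypes did not overlap, and the log2 difference was 0.44 ± 0.11 SE (adjusted p = 0.138 in limma). Without des1-1 1 STZ rose by 0.53 (adjusted p = 0.0381 in limma, within 0.0381 to 0.351 over the alternatives). AT4G27280 read 7.59 to 7.79 in the wild type and 7.54 to 7.89 in des1-1, and differed by 0.06 ± 0.11 SE. WRKY53, a transcription factor of senescence and defence, differed by -0.04 ± 0.14 SE. AT4G27280 and WRKY53 had adjusted p of 0.852 and 0.934 in limma.

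Proteins that hold or sense calcium inside organelles were close to even. CRT1b, a calreticulin that stores calcium in the endoplasmic reticulum, read 9.73 to 9.96 in the wild type and 9.64 to 9.79 in des1-1. It differed by -0.14 ± 0.09 SE (adjusted p = 0.506 in limma; 95% interval -0.33 to 0.06). CaS, the calcium-sensing protein of the thylakoid membrane, read 12.26 to 12.32 and 12.09 to 12.33. It differed by -0.04 ± 0.09 SE (adjusted p = 0.896 in limma; 95% interval -0.23 to 0.16).

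**Figure D5:**
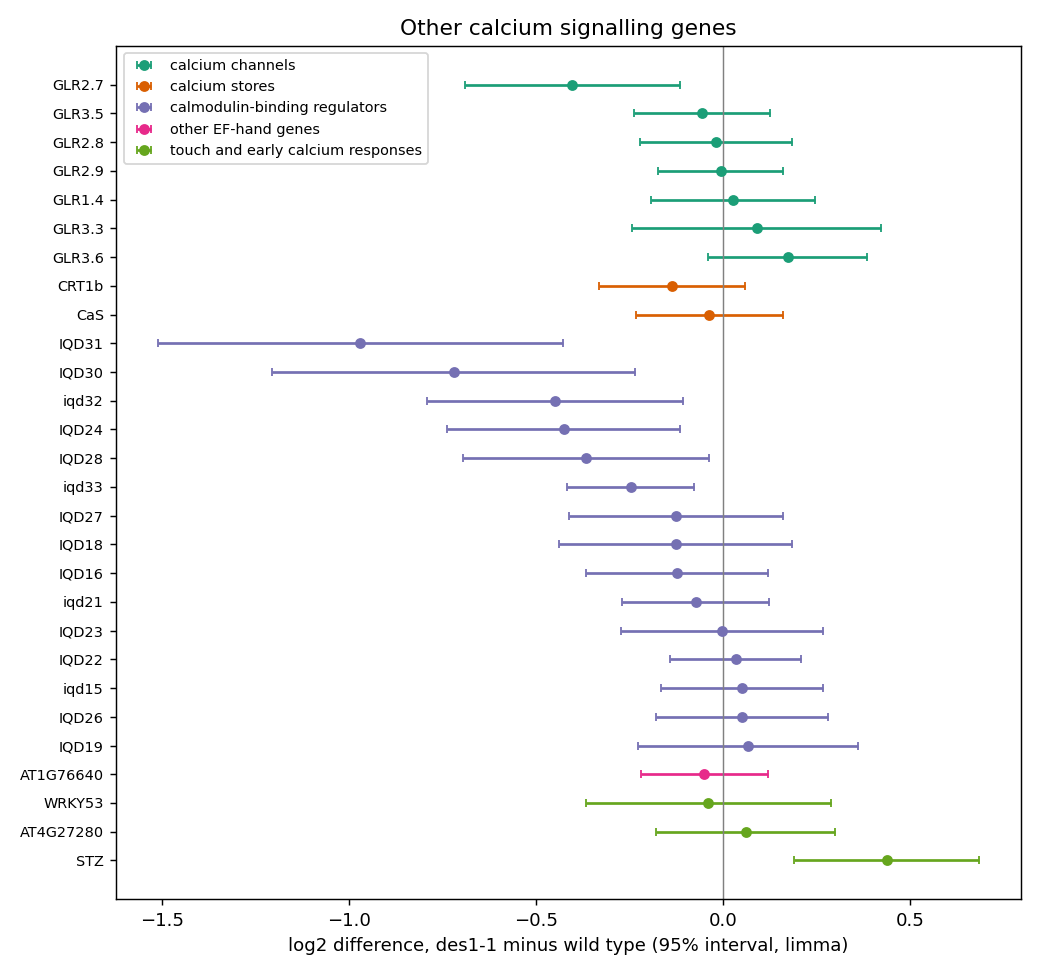
Log2 difference (des1-1 minus wild type) of the 28 measured genes of the other calcium lists, with 95% intervals from limma, coloured by list. None passed after adjustment over all probe sets, and the values run from -0.97 for IQD31 to 0.44 for STZ.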

How the data were processed

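The deposited values are log2 expression values that the authors computed by RMA; the submitters' processing notes name RMA and affy, while versions and build are not given in the sources used here. RMA subtracts background, equalises the arrays' distributions and summarises each probe set, which removes shifts shared by all genes and compresses dim differences. Values lie between 3.63 and 14.63. Precision is set by there being 3 arrays a genotype.

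The 64 control probe sets were left out, and the other 22746 went into a two-sided limma test (limma 3.58.1, R 4.3.3, default lmFit and eBayes, a genotype term alone) with Benjamini-Hochberg adjustment across all of them. SEs and 95% intervals come from this fit, which was also tested on simulated data. "Rose" and "fell" mean an adjusted p under 0.05. In the platform annotation 13513 probe sets had 1 gene, 503 had several and 8730 were without a name here; 13436 of the first matched the TAIR10.1 reference table, used for names and neighbours only. Tables and plots used Python 3.11.15, pandas 2.3.3 and matplotlib 3.10.9.

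The members and lists were chosen with earlier results of these data known. Named in full were the leading 3 genes and the other 6 members, with up to 3 genes per list by smallest unadjusted p, the 3 genes most like each leading gene by Pearson's r, and any gene that passed. GLR2.8, GLR2.9, GLR3.3, iqd32 and the marker genes were named after their values were seen. Deviations of same-numbered arrays from their genotype means correlated at 0.17, -0.23 and 0.21, so the numbers were not taken to pair the arrays.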

Additional observations from a re-analysis of the deposited data

How the results depend on the processing

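Each of 15 alternatives changed 1 choice: array scaling, the dim filter, eBayes settings, array weights, a replicate block or the arrays included. Each of the 9 genes has 1 probe set, so counting probe sets separately was not run. The differences of 8 of the 9 kept their sign wherever they were tested. The exception was CML37, at -0.012 with array weights and -0.072 to 0.068 with single arrays left out (negative without des1-1 2 and wild type 2). WRKY53 turned to 0.085 with array weights and ran from -0.20 to 0.048 with single arrays left out, AT4G27280 from -0.022 (without des1-1 3) to 0.15 and CaS from -0.077 to 0.043 (without des1-1 2), none past the test.

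Leaving out 1 array gave 19 to 219 higher and 0 to 546 lower probe sets against 75 and 13, and 0 to 2 of the 9 genes past the threshold against 2. Among the 28 pathway genes it gave 0 to 1 higher and 0 to 4 lower. The replicate block gave 89 lower over all probe sets and 1 lower pathway gene, IQD31 (adjusted p = 0.0442 in limma); same-numbered arrays correlated best with their own number for replicates 1 and 3, not for replicate 2. The eBayes trend gave 40 lower. Without the dimmest 25% there were 27 lower, and 4 of the 5 genes left had a higher mean, with a median of 0.48; without the dimmest 50% there were 26, 3 of 4 and 0.41. The filters drop dim genes by construction. They left AT2G41410, AT2G46600 and, at 25%, CML41, all chosen by this contrast, so nothing is read from the counts of higher genes or the medians. The genes added by symbol that were left were CML42 (0.20) and CML30 (-0.21). Otherwise the cause was not tested. Depth in the sense of reads does not apply; 4 of the 9 genes are dim, which limits what can be measured in them.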
